A study of Canis lupus familiaris with 10 samples.

Results

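Costimulatory ligands and receptors were examined in canine cutaneous histiocytoma (CCH), a Langerhans cell tumour of the skin that is benign and mostly disappears without treatment. The genes were chosen by name: CD80, CD83, CD86, CD40, CD40LG, CD28, ICOS and ICOSLG. All 8 were present among the 800 genes of the nCounter Canine IO Panel, a hybridization assay that counts a coloured barcode on each probe without amplification. Early CCH (group 1 of a histological grading by lymphocyte infiltration) was represented by 5 tumours and late CCH (group 3, rich in lymphocytes) by 5 tumours, each from a different dog. Dogs with early CCH were 0.5 to 5.0 years old, with 3 males and 1 female, and 1 dog of this stage had no age or sex given. Dogs with late CCH were 1.5 to 9.0 years old, with 4 males and 1 female. The early tumours came from 2 French Bulldogs, a Goldendoodle, a Terrier and a Boxer, and the late tumours from a Rottweiler, a Beagle, a Pug, a Bullterrier and a Jack Russell Terrier. No treatment or genotype was given for either stage, and neutered dogs were counted with their sex. Both stages were archival formalin-fixed, paraffin-embedded tissue, cut as scrolls of the tumour cross section after the adjacent tissue had been removed.

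A T cell needs a costimulatory signal beside the one from its antigen receptor. CD80 and CD86 on antigen-presenting cells give that signal through CD28, and the same ligands are bound by CTLA4, which restrains the response. ICOSLG acts in the same way on ICOS of activated T cells, while CD40LG of T cells acts in the opposite direction, on CD40 of the antigen-presenting cell. CD83 is a surface protein of mature dendritic cells and activated lymphocytes that stabilises CD86 and MHC class II at the cell surface, and Langerhans cells acquire it with CD80 and CD86 when they mature.

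The counts behind the deposited values summed to between 484696 and 823763 in early CCH and between 945399 and 1253083 in late CCH. The DV200, the percentage of RNA fragments over a length limit, was 64.5 to 71.2 in early CCH and 71.2 to 75.8 in late CCH. The late replicate 5 value in the labels differed from the one in the study's sample sheet. The stages were run on separate cartridges, shared no RNA extraction batch and came from blocks stored for different lengths of time, so these factors and stage cannot be told apart. Background was taken as the mean plus 2 SD of the negative control probes of a sample, which came to 21.8 to 38.2 normalized counts in early CCH and 19.2 to 26.9 in late CCH.

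Values are given as normalized counts, and tests used the log2 fold change of early over late CCH, so that a positive value means higher in early CCH. Levels of different probes were not compared with each other. Calling a gene required a change of at least 2-fold and an adjusted p of at most 0.05 by the Benjamini-Yekutieli (BY) procedure, and the less strict Benjamini-Hochberg (BH) adjusted p is given beside it. Both were taken from limma over all 761 genes tested. None of the 8 genes was called, against 11.2% of the genes tested, with 9.2% called on the late side and 1.97% on the early side. At a BH adjusted p of at most 0.05, 4 of the 8 passed, CD86 as higher in early CCH and CD83, CD28 and ICOS as higher in late CCH. The same 4 had an unadjusted p under 0.05, against 45.3% of the genes tested. The BH threshold was passed by 35.7% of the genes tested, 8.41% as higher in early CCH and 27.3% as higher in late CCH, so 4 of 8 was not far from the panel. The median log2 fold change over the tested genes was -0.18.

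**Figure D1:**
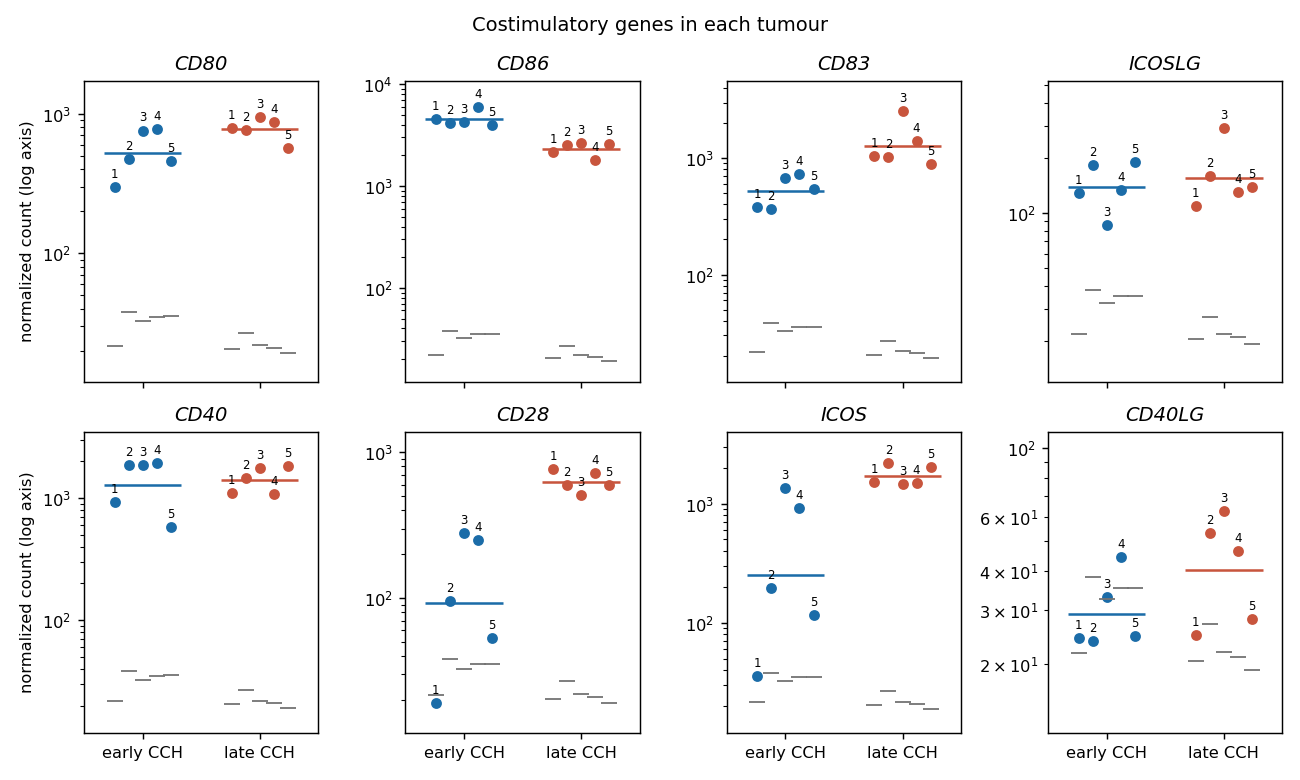
Normalized counts (log axis) of the 8 genes in each of the 5 early and 5 late CCH samples. Dots carry the replicate number, horizontal lines mark the stage mean of log2 values and grey dashes the background of each sample. CD83, CD28 and ICOS lay higher in each late sample than in each early one, CD86 lay lower, and the stages overlapped for the other genes.

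Among the B7 ligands, CD86 was the only one of the 8 genes higher in early than in late CCH past the BH threshold. Its normalized counts in early replicates 1 to 5 were 4552, 4113, 4263, 5942 and 3962. In late replicates 1 to 5 they were 2161, 2500, 2635, 1806 and 2558. The lowest early sample lay above the highest late sample, and early replicate 4 stood highest. The mean was 4566 ± 799 in early and 2332 ± 345 in late CCH (SD, n = 5 each). The log2 fold change was 0.97 (SE 0.16, 95% confidence interval 0.61 to 1.32), 1.95-fold, with a BH adjusted p of 0.00224 and a BY adjusted p of 0.0161 in limma. In this fit CD86 passed the BY threshold and missed the call on the 2-fold limit. The BY threshold was missed without late replicate 1 (0.0540), in male dogs only (0.167) and with DV200 as a covariate (0.243). Without that limit 12.7% of the tested genes passed, and 2.76% of the tested genes passed as higher in early CCH. With DV200 as a covariate, the log2 fold change of CD86 was 1.20 with a BH adjusted p of 0.0336 in limma, and with late replicate 5 also left out it was 1.34 and the BH threshold was missed (0.0630).

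CD80, the other B7 ligand of CD28, did not pass either threshold. Early replicates 1 to 5 held 297, 477, 758, 781 and 457 normalized counts. Late replicates 1 to 5 held 788, 766, 953, 866 and 569. Early replicates 3 and 4 fell within the range of the late samples, while early replicates 1, 2 and 5 lay below it. The mean was 554 ± 209 in early and 788 ± 143 in late CCH (SD, n = 5 each), with a log2 fold change of -0.58 (95% confidence interval -1.19 to 0.033) and a BH adjusted p of 0.128 in limma.

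CD83 was higher in late CCH. Normalized counts of 382, 366, 670, 728 and 544 were measured in early replicates 1 to 5. The late replicates, in the same order, gave 1042, 1031, 2553, 1391 and 895. The stages did not overlap, and late replicate 3 stood above the other late samples. The mean was 538 ± 164 in early and 1382 ± 680 in late CCH (SD, n = 5 each). The log2 fold change was -1.30 (SE 0.31, 95% confidence interval -2.001 to -0.60), 2.47-fold higher in late CCH, with a BH adjusted p of 0.0109 and a BY adjusted p of 0.0786 in limma. Without late replicate 3 the log2 fold change was -1.05 (BH adjusted p = 0.0127). With DV200 as a covariate it was -0.84 and the BH adjusted p rose to 0.265.

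ICOSLG, the ligand of ICOS, varied more within than between the stages. In early CCH the normalized counts of replicates 1 to 5 were 129, 183, 86.3, 133 and 189. Those of late CCH were 109, 159, 293, 130 and 138. Late replicate 3 held the highest value of the 10 samples, and the remaining samples of both stages overlapped. The log2 fold change was -0.16 (95% confidence interval -0.85 to 0.52, BH adjusted p = 0.708 in limma), and its sign turned without early replicate 3 (0.0061), without late replicate 3 (0.062) and with other scalings.

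CD40, the receptor on antigen-presenting cells through which T cells give help, was at similar means in both stages. Its normalized counts in early replicates 1 to 5 were 924, 1871, 1843, 1917 and 578. In late replicates 1 to 5 they were 1094, 1458, 1761, 1086 and 1830. Early CCH held both the lowest and the highest value. The mean was 1427 ± 630 in early and 1445 ± 354 in late CCH (SD, n = 5 each), with a log2 fold change of -0.13 (95% confidence interval -0.92 to 0.65, BH adjusted p = 0.805 in limma) whose sign turned with other scalings.

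**Figure D2:**
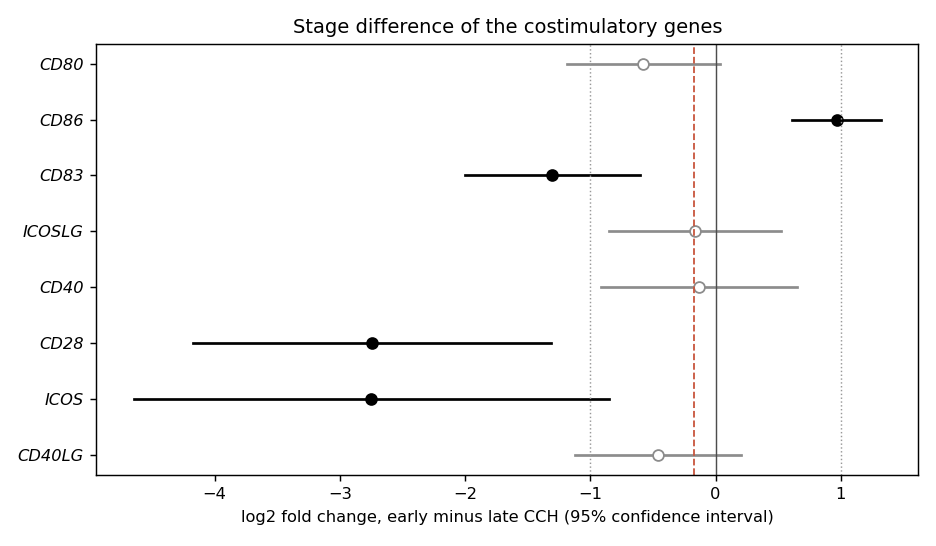
Log2 fold change (early over late CCH) of the 8 genes with 95% confidence intervals. Filled symbols passed a BH adjusted p of 0.05, dotted lines mark a 2-fold change and the red dashed line the median of the tested genes (-0.18). CD86 lay at 0.97, CD83 at -1.30, and CD28 and ICOS at -2.75 each.

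On the T cell side, CD28, the receptor for CD80 and CD86, was higher in late CCH. Early replicates 1 to 5 held 19.0, 94.99, 281, 249 and 53.1 normalized counts. Late replicates 1 to 5 held 764, 595, 506, 719 and 595. The late samples lay close together, with the highest 1.51-fold above the lowest, whereas the early samples spanned 14.8-fold and early replicate 1 lay below its background. The mean was 139 ± 118 in early and 636 ± 104 in late CCH (SD, n = 5 each). The log2 fold change was -2.75 (SE 0.64, 95% confidence interval -4.18 to -1.31), 6.71-fold, with a BH adjusted p of 0.00974 and a BY adjusted p of 0.0703 in limma. Raising values under 38.2, the highest background of any sample, to that level gave -2.55. With DV200 as a covariate the log2 fold change was -2.01 and the BH adjusted p was 0.227.

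ICOS, an inducible receptor of activated T cells, showed the same order of stages with a wider spread. Normalized counts of 35.97, 197, 1346, 919 and 117 were measured in early replicates 1 to 5. The late replicates, in the same order, gave 1512, 2203, 1458, 1495 and 2010. The early samples spanned 37.4-fold and the late samples 1.51-fold, and early replicate 3 came close to the lowest late sample without reaching it. The mean was 523 ± 579 in early and 1736 ± 346 in late CCH (SD, n = 5 each). The log2 fold change was -2.75 (SE 0.86, 95% confidence interval -4.64 to -0.85), with a BH adjusted p of 0.0308 and a BY adjusted p of 0.222 in limma. The log2 fold change was -2.05 without early replicate 1 and -3.35 without early replicate 3. The BH threshold was kept in 4 of 10 fits that each left out 1 sample. It was missed without early replicate 2 (0.0563), early replicate 5 (0.0722), late replicate 1 (0.0553), late replicate 2 (0.0593), late replicate 4 (0.0566) and late replicate 5 (0.0599), and in male dogs only (0.0602). With DV200 as a covariate the log2 fold change was -1.45 (BH adjusted p = 0.465).

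CD40LG, the T cell ligand of CD40, was close to background. In early CCH the normalized counts of replicates 1 to 5 were 24.3, 23.8, 33.04, 44.5 and 24.6. Those of late CCH were 24.8, 53.1, 62.6, 46.4 and 28.1. The values were 0.622 to 2.87 times the background of the sample, with 3 of 5 early and 5 of 5 late samples above it. These values rested on 13 to 58 recovered counts. A difference between the stages was not detectable at this depth (log2 fold change -0.46, 95% confidence interval -1.12 to 0.20, BH adjusted p = 0.254 in limma).

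**Figure D3:**
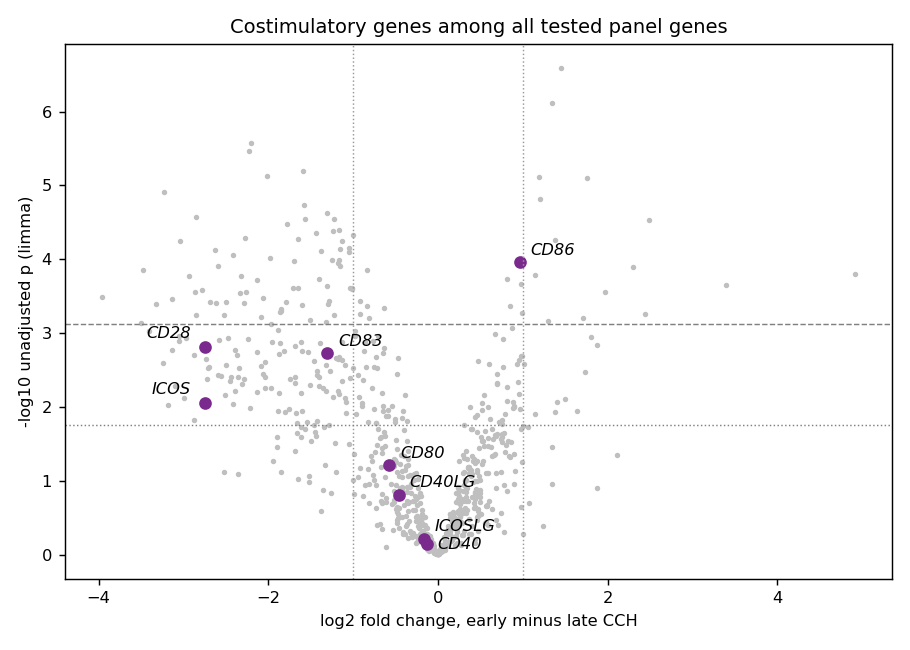
Log2 fold change (early over late CCH) against the negative log10 of the unadjusted p for the 761 tested genes (grey), with the 8 costimulatory genes named. The dashed horizontal line marks the largest p among called genes, the dotted horizontal line the largest p past the BH threshold, and the dotted vertical lines a 2-fold change. CD86 lay above the dashed line just inside the 2-fold limit, and CD83, CD28 and ICOS lay between the horizontal lines on the late side.

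Early and late samples were fully separated for 4 of the 8 genes, against 24.6% of the tested genes. CD86 lay higher in early CCH (5.39% of the tested genes), and CD83, CD28 and ICOS lay higher in late CCH (19.2%). These directions were read against the scaling, because scaling by the geometric mean of the panel instead of the housekeeping genes moved the median of the tested genes from -0.18 to 0.21. Relative to the panel median, CD86 stood at 1.14, CD83 at -1.13, and CD28 and ICOS at -2.57 on the log2 scale. The remaining genes stood between -0.40 (CD80) and 0.044 (CD40) relative to that median. The calls over the tested genes split into 15 on the early side and 70 on the late side as deposited, 42 and 35 after geometric mean scaling, 47 and 34 after quantile scaling, and 30 and 41 after scaling to the sum.

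Whether a ligand and its receptor kept step was examined with ratios within a sample, which do not depend on how the sample was scaled. A set of 9 ratios was tested by exact two-sided permutation over samples, for which 5 against 5 cannot give a p below 0.00794, and 5 of the 9 passed after BH adjustment, 1 of them resting on CD40LG values near background. The log2 ratio of CD86 to CD28 was 5.59 ± 1.52 in early and 1.88 ± 0.44 in late CCH (SD, n = 5 each). The difference of 3.71, or 13.1-fold, had an exact permutation p of 0.00794 (adjusted 0.0179), the smallest this design can give. Since CD86 and CD28 were each fully separated in opposite directions, the separation of their ratio and its p were fixed by the single genes and add no evidence. CD28 lay below background in early replicate 1. With values under the highest background of any sample (38.2) raised to that level, the difference was 3.52. The log2 ratio of CD80 to CD28 was higher in early CCH as well, by 2.17 (2.47 ± 1.02 against 0.30 ± 0.38, SD, n = 5 each, exact permutation p = 0.00794, adjusted 0.0179). With values raised to 38.2 it was higher by 1.98. CD28 alone differed by -2.75 and CD80 alone by -0.58, so most of the 2.17 was the difference of CD28.

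The ratios of CD83 and CD80 to CD86 were higher in late CCH. CD80 alone did not pass, and CD83 is carried by activated lymphocytes as well as by dendritic cells. The log2 ratio of CD83 to CD86 was -3.12 ± 0.39 in early and -0.85 ± 0.62 in late CCH (SD, n = 5 each, exact permutation p = 0.00794, adjusted 0.0179), 4.82-fold higher in late CCH. This separation too was fixed by those of CD83 and CD86 alone. CD80 over CD86 was -3.11 ± 0.52 in early and -1.57 ± 0.41 in late CCH (SD, n = 5 each, exact permutation p = 0.00794, adjusted 0.0179), 2.91-fold higher in late CCH. CD86 alone differed by 0.97 and CD80 alone by -0.58 on the log2 scale, so the larger part was the difference of CD86. For each of these 4 ratios, no early sample overlapped a late one.

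The other pairs of ligand and receptor did not pass. ICOSLG over ICOS was -0.87 ± 2.41 in early and -3.45 ± 0.65 in late CCH (SD, n = 5 each, exact permutation p = 0.0873, adjusted 0.131). When 1 sample was left out, the difference of 2.58 ran from 1.91 to 3.35 and its adjusted p from 0.0476 to 0.262. It passed in 1 of 10 such tests, that without early replicate 3. CD40 over CD40LG differed by 0.33 (exact permutation p = 0.421, adjusted 0.541) and rested on CD40LG values near background.

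**Figure D4:**
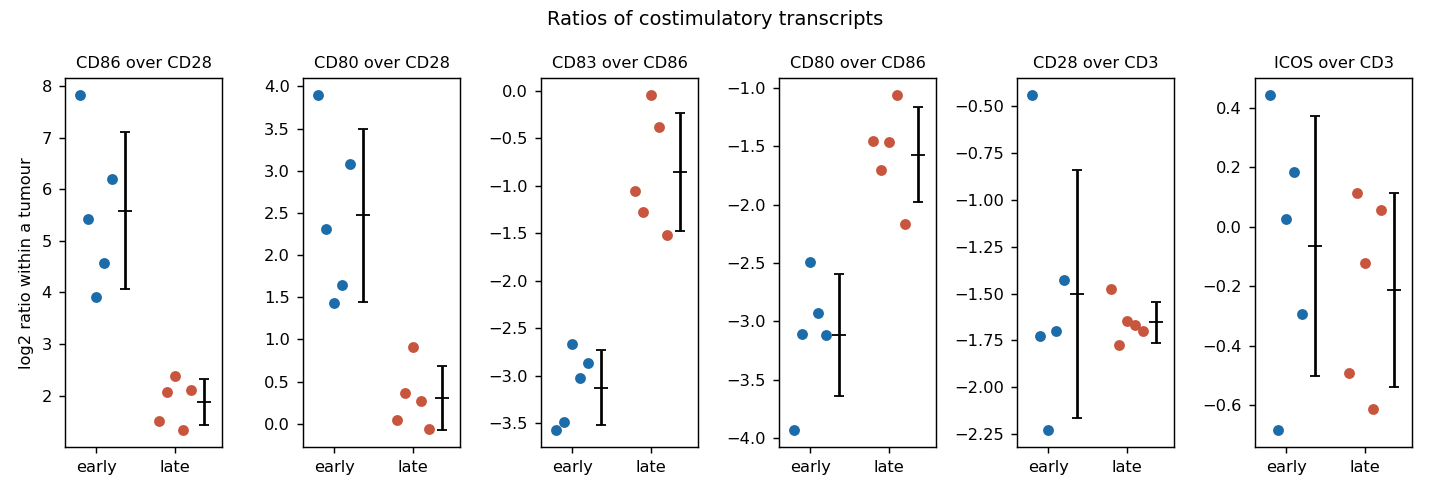
Log2 ratios of pairs of genes within each sample. Drawn are CD86 over CD28, CD80 over CD28, CD83 over CD86, CD80 over CD86, and CD28 and ICOS over the CD3 chains. The others of the 9 ratios tested are not drawn. Dots are samples of early and late CCH, and black marks show the mean ± SD (n = 5 per stage). The stages did not overlap for CD86 over CD28, CD80 over CD28, CD83 over CD86 and CD80 over CD86, and lay over each other for CD28 and ICOS relative to the CD3 chains.

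The levels of CD28 and ICOS moved with those of T cell markers. In this bulk tissue, fewer cells of a type and less RNA per cell cannot be told apart. CD3E, a chain of the T cell receptor complex, was at 42.3, 716, 3402, 2090 and 275 normalized counts in early replicates 1 to 5. In late replicates 1 to 5 it was at 6134, 5024, 3853, 6011 and 5160. The early samples thus followed one order for CD3E, CD28 and ICOS, from replicate 1 as the lowest through 5, 2 and 4 to 3 as the highest. All 9 listed T cell markers passed the BH threshold as higher in late CCH, against 27.3% of the tested genes. Their log2 fold changes ran from -3.23 (CD6) to -2.37 (CD2), with CD3D at -2.9987, CD3E at -3.18 and CD3G at -2.51. The summed normalized count of the 9 markers was 482 to 9164 in early and 12347 to 20589 in late CCH, and none was at 0.

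Relative to the mean log2 value of CD3D, CD3E and CD3G, CD28 was -1.50 ± 0.66 in early and -1.65 ± 0.11 in late CCH (SD, n = 5 each, exact permutation p = 0.730, adjusted 0.730). ICOS relative to the same chains was -0.065 ± 0.44 in early and -0.21 ± 0.33 in late CCH (SD, n = 5 each, exact permutation p = 0.556, adjusted 0.625). No difference in either ratio was detected, and in early replicate 1 CD28 and CD3D were below background, so that its ratio is uncertain. CD40LG over the CD3 chains was -3.14 ± 1.97 in early and -5.58 ± 0.68 in late CCH (SD, n = 5 each, exact permutation p = 0.0238, adjusted 0.0429). CD40LG was near background, and below it in 2 of 5 early samples, so this ratio mostly restates the levels of the CD3 chains and its size is not a measure of CD40LG. The adjusted p of this ratio exceeded the threshold in 9 of 10 fits that left out 1 sample, every one except that without early replicate 3.

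**Figure D5:**
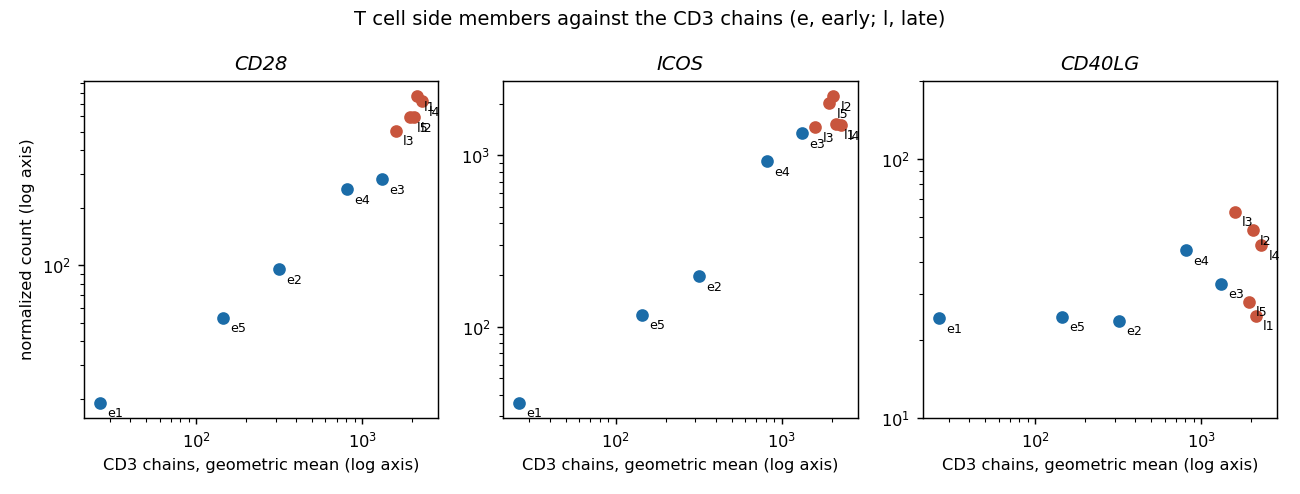
Normalized counts of CD28, ICOS and CD40LG against the geometric mean of CD3D, CD3E and CD3G in the 10 samples (log axes). Dots carry the replicate number and the stage. In early CCH CD28 and ICOS rose with the CD3 chains, in late CCH both lay within a 1.51-fold range and ICOS did not follow the order of the CD3 chains, and CD40LG stayed between 23.8 and 62.6.

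Relatives of the B7 and CD28 families were read against the panel, where 27.3% of the tested genes passed the BH threshold as higher in late CCH and 8.41% as higher in early CCH. Of 8 measured genes, 4 passed the BH threshold as higher in late CCH, none as higher in early CCH, and 4 did not pass. Their median log2 fold change was -0.96, against -0.18 over the tested genes. PDCD1LG2, a ligand of the inhibitory receptor PD-1, was the one called (240 ± 133 against 848 ± 279, SD, n = 5 each, log2 fold change -1.97, BY adjusted p = 0.0436 in limma). PDCD1, which encodes PD-1, was lower in early CCH at -2.07 (BH adjusted p = 0.0160 in limma) and CD274, its other ligand, at -1.60 (BH adjusted p = 0.0106 in limma). TNFRSF14, a ligand of BTLA, had a log2 fold change of -0.58 (BH adjusted p = 0.0394 in limma).

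CTLA4, the inhibitory receptor for CD80 and CD86, just missed the threshold. Its normalized counts in early replicates 1 to 5 were 361, 390, 1347, 810 and 267. In late replicates 1 to 5 they were 681, 1972, 1050, 1287 and 2370. Early replicates 3 and 4 lay within the late range (log2 fold change -1.34, BH adjusted p = 0.0521 in limma). In the RefSeq annotation of the dog, CD28, CTLA4 and ICOS are neighbours on chromosome 37 with 0 protein-coding genes between them, and of the 3 only CD28 and ICOS passed. CD80 and CD86 lie on chromosome 33 with 23 protein-coding genes between them. The genes CD276 (-0.26), BTLA (0.57) and VSIR (0.047), relatives regarded mostly as inhibitory, had BH adjusted p of 0.467, 0.484 and 0.878 in limma.

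In the TNF superfamily, read against the same panel shares, 4 of 5 measured receptors and 0 of 4 ligands passed the BH threshold, each of the receptors as higher in late CCH, and a difference between receptors and ligands was not tested. The median log2 fold change of the 9 genes was -0.62. CD27, a costimulatory receptor of T cells, was called (69.9 ± 49.5 against 328 ± 78.9, SD, n = 5 each, log2 fold change -2.53, BY adjusted p = 0.0353 in limma). TNFRSF4 (OX40) followed at -2.13 with a BH adjusted p of 0.0107 in limma. TNFRSF9 (4-1BB) was at -1.28 with a BH adjusted p of 0.0493, and TNFRSF18 (GITR) at -1.24 with 0.0265. The ligands CD70 (-0.32, BH adjusted p = 0.606), TNFSF4 (-0.50, 0.119), TNFSF18 (0.076, 0.834) and TNFSF8 (-0.17, 0.660) did not pass, nor did TNFRSF8 (CD30, -0.62, 0.170). TNFSF4 and TNFRSF8 were above background in 0 of 5 early samples.

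The signalling lists were set beside those shares as well. Downstream of CD28 and the T cell receptor, 9 of 10 measured genes were tested, of which 5 passed the BH threshold as higher in late CCH, 1 as higher in early CCH and 3 did not pass, with a median log2 fold change of -0.72. PIK3CD, the leukocyte catalytic subunit of phosphoinositide 3-kinase, was called as higher in late CCH (log2 fold change -1.23, BY adjusted p = 0.0102 in limma). The gene higher in early CCH was PIK3R1, a regulatory subunit of the same kinase (0.81, BY adjusted p = 0.0208), and the genes higher in late CCH included LCK (-2.72) and NFATC1 (-0.72). ZAP70 fell under the level filter. For CD40 signalling, 11 of 15 listed genes were measured, of which 6 passed the BH threshold as higher in late CCH, 1 as higher in early CCH and 4 did not pass (median -0.66). The panel shares were 27.3% on the late side and 8.41% on the early side. NFKB2, the precursor of the non-canonical NF-kappaB subunit (-1.13, BY adjusted p = 0.0120 in limma), and TNFAIP3, an inhibitor of NF-kappaB (-1.03, BY adjusted p = 0.0238), were called. BCL2L1, which encodes an inhibitor of apoptosis, was the gene higher in early CCH (0.87, BY adjusted p = 0.0488). CD40 itself and CD40LG did not pass.

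Markers of other cells in the tumour were set beside the ligands, with panel shares past the BH threshold of 27.3% on the late side and 8.41% on the early side. The Langerhans and dendritic cell list had 8 of 12 markers on the panel, of which 2 passed the BH threshold as higher in early CCH, 2 as higher in late CCH and 4 did not pass, from FLT3 (2.49) to CCR7 (-1.68) on the log2 fold change scale. The other markers that passed were FCER1A (2.44) and XCR1 (-1.60). Their summed normalized count was 1669 to 4656 in early and 1296 to 2260 in late CCH, overlapping between the stages. CD207 (langerin), a defining marker of Langerhans cells, was at background in most samples, and CD1A was not on the panel. Of 7 macrophage markers, 2 passed as higher in late CCH, near the panel share of 27.3%, and 5 did not pass, from MRC1 (1.00) to MSR1 (-1.67), with CD68 (-1.29) as the other that passed and sums of 2911 to 7523 in early and 4163 to 8026 in late CCH. Whether these cells carried the difference in CD86 or CD83 was not tested.

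The panel share past the BH threshold on the late side was 27.3%. Of 8 B cell markers, 6 passed the BH threshold as higher in late CCH and 2 did not pass, from CD22 (0.17) to CD79A (-2.61). Their sum was 1425 to 2138 in early and 1562 to 8429 in late CCH. Late replicate 3 was highest, as it was for CD80, CD83, CD40LG and ICOSLG. Of 8 cytotoxic lymphocyte markers, 6 passed as higher in late CCH and 2 did not pass, from KLRB1 (-0.47) to GZMK (-3.96), with sums of 752 to 6359 in early and 8047 to 22815 in late CCH. The part of these cells in the levels of CD83 and the receptors was not tested.

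Markers of tissue cells mostly did not pass. Neither did most tested genes, of which 27.3% passed as higher in late CCH and 8.41% as higher in early CCH. None of 3 keratinocyte markers passed, from EPCAM (0.89) to CDH1 (0.27), with sums of 652 to 5612 in early and 489 to 3824 in late CCH. Of 4 stromal markers 1 passed as higher in late CCH, from COL3A1 (-0.26) to THY1 (-1.58), with sums of 4417 to 36926 in early and 11639 to 32323 in late CCH. Of 3 endothelial markers 1 passed as higher in late CCH, from PECAM1 (0.048) to CDH5 (-0.98), with sums of 1008 to 1595 and 727 to 1590. Of 7 mast cell and neutrophil markers 2 passed as higher in early CCH, CPA3 (1.38) and MS4A2 (0.97), within a range from S100A9 (1.87) to CSF3R (-0.61), with sums of 1855 to 27775 and 915 to 22829.

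The genes whose levels ran most closely with each costimulatory gene were named by Pearson's r of log2 values after the stage mean had been subtracted. These values describe 10 samples that share the scaling of each sample. For CD28 and ICOS the spread left after centring lay mostly in early CCH. The SD of their log2 values was 1.59 and 2.14 in early CCH, against 0.24 and 0.28 in late CCH. For CD28 they were TRAC (0.995), CD3G (0.993) and CD3E (0.993), all parts of the T cell receptor complex. For ICOS they were CD3G (0.977), CYFIP2 (0.976) and LCK (0.973), the kinase at the T cell receptor. CD80 ran with TRAT1 (0.960), EPSTI1 (0.958) and IFIT2 (0.953), of which EPSTI1 and IFIT2 are interferon-induced genes. CD80 itself had r = 0.874 with CD28 and 0.843 with ICOS, and CD28 had r = 0.969 with ICOS.

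The remaining genes had other companions. CD83 ran with MAP3K1 (r = 0.933), DLA-DOB (0.909), an MHC class II gene of B cells, and CYLD (0.905). CD86 was nearest to MAP2K4 (0.814), BCL2 (0.778) and FGFR3 (0.772), and CD40 to ICAM1 (0.886), CCL27 (0.870) and TNFAIP3 (0.832). CD40LG, near background, was closest to FOXP3 (0.911), HLA-DRB1 (0.910) and VCAM1 (0.862), and ICOSLG to PTGDR2 (0.885), IL6R (0.861) and LOC487977 (0.854). The closest companions of CD86, at r of 0.772 to 0.814, were less similar in pattern than those of CD28, and none of them was a T cell receptor gene. CD86 varied less within early CCH (SD of log2 values 0.23, against 1.59 for CD28), which limits this comparison.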

How the data were processed

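RNA of 10 FFPE tumours was measured on the nCounter Canine IO Panel. The authors scaled the counts to positive controls and then to housekeeping genes, and deposited the resulting linear signal, which is called normalized counts. Values of each sample were whole multiples of one step (at least 99.4% of genes within 0.0051), and dividing by it gave recovered counts, used for depth and background only. Counting error is not the spread between dogs.

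With limma 3.58.1 under R 4.3.3, using lmFit and eBayes with the trend option, log2(normalized count + 1) was compared between 5 early and 5 late samples for the 761 of 800 genes with a mean of at least 20, without covariates and with late CCH as baseline. The 14 control probes (6 positive, 8 negative) were left out. This scale understates changes of low genes. Ratios were tested by exact permutation (scipy 1.17.1), and figures were drawn with matplotlib 3.10.9. The fit was tested on simulated data.

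Lists covered relatives of B7 and CD28, TNF costimulators, CD28 and CD40 signalling, and markers of T, B, Langerhans and dendritic, macrophage, cytotoxic, keratinocyte, stromal, endothelial, and mast and neutrophil cells. Named are all 8 genes, tested genes of the first 2 lists, called genes of the signalling lists, CD3 chains, the extremes of marker lists and the 3 genes most alike each. Others that passed in the signalling and marker lists were named after their values were seen. Some genes of the signalling lists are not reported here by name. Members and lists were chosen with earlier results of these data known. In the RefSeq table of the UU_Cfam_GSD assembly 773 of 800 symbols matched. Alternatives covered pseudocount, filters, scaling, DV200, sex, array weights, background floor, adjustment, replicate block and leaving out each sample. Replicate numbers are names only: samples of the same number had deviations correlated at -0.20 to 0.16.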

Additional observations from a re-analysis of the deposited data

Results flagged for a closer look

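Of 36 groups of 5 samples checked, 2 (5.6%, where chance gives about 5%) held a sample far from the others, and both concerned late replicate 3. ICOSLG in late replicate 3 was at 292.53 normalized counts, against 109 to 159 in the other late samples. The log2 ratio of ICOSLG to ICOS in late replicate 3 was -2.31, above the other late samples. Both rest on the same ICOSLG value, so they are not independent of each other.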

How the results depend on the processing

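CD86, CD83, CD28, ICOS and CD80 kept the sign of their log2 fold change in all alternatives tried. Over the panel 85 genes were called, against 0 with DV200 as covariate, also with late replicate 5 left out, 0 in male dogs only, 188 with BH in place of BY, and 39 (without late replicate 1) to 98 (without early replicate 3) when 1 sample was left out. Of the 8 genes, 0 were called as reported and 0 to 1 when 1 sample was left out, CD86 without early replicate 2, early replicate 5, late replicate 3 or late replicate 5 and CD28 without early replicate 3 or early replicate 4. The count was 1 with array weights (CD28), 1 each with geometric mean, quantile and sum scaling (CD86), and 3 with BH in place of BY (CD83, CD28, ICOS). Among settings chosen after seeing the data it was 1 without the 2-fold limit (CD86) and 2 with extraction batch as random block (CD83, CD28). The estimated correlation within a batch was negative (-0.1379) and no batch held both stages, so that fit narrows the error of the stage difference and adds no support to these calls. At the BH threshold 4 passed, against 1 with DV200 (CD86), 0 with DV200 and late replicate 5 left out, and 3 to 4 when 1 sample was left out. Of 9 ratios 5 passed, against 0 in male dogs only, where 3 against 4 samples cannot give an exact p below 0.0571, and 4 to 6 when 1 sample was left out. DV200 separated most early from late samples, so that covariate and stage share most of their variation. Beyond these points, the cause of the changes was not tested.

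Signs turned in genes or ratios that did not pass. CD40 was at 0.69 with DV200, 1.11 with DV200 and late replicate 5 left out, 0.26 with geometric mean scaling, 0.26 with quantile scaling, 0.14 with sum scaling, 0.092 in male dogs, and -0.28 to 0.16 when 1 sample was left out. CD40LG was at 0.11 with DV200. ICOSLG was at 0.22 with geometric mean, 0.43 with quantile and 0.10 with sum scaling, and -0.29 to 0.062 when 1 sample was left out. CD28 over the CD3 chains was at -0.088 with DV200, -0.17 with DV200 and late replicate 5 left out, and -0.12 to 0.33 when 1 sample was left out. The cause was not tested.

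With a replicate block, 1 gene of the panel was called, the 8 genes had 0 calls (CD86 missed the BY threshold at 0.158) and 4 past the BH threshold, and 0 ratios passed, because 5 pairs cannot give an exact p below 0.0625. CD40LG could not be tested at a mean of at least 50, and the planned count test on recovered counts was not run. Of the 8 genes, CD40LG lay nearest to background.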
